A study of Homo sapiens with 9 samples.

Results

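Antioxidant defence in LiSa-2 cells, a human liposarcoma line, was read from 10 genes of the thioredoxin, glutathione and NRF2 systems after treatment with a hyaluronidase preparation. The genes were chosen by name (TXN, TXN2, TXNRD1, TXNRD2, GSR, GCLC, GCLM, NQO1, SRXN1 and NFE2L2) and are 10 of the 19775 genes that had a probe set with a single symbol on Affymetrix Human Genome U133 Plus 2.0 arrays. They had 23 such probe sets between them. Cells on plates, in medium with bovine serum, received bovine testicular hyaluronidase (HAase) at 400 µg/mL for 24 h (3 arrays), the same dose for 6 h (3 arrays), or phosphate-buffered saline (PBS) with harvest at 24 h (3 arrays). All 9 arrays come from this line, no array's sample received inactivated enzyme, and the labels do not say whether the arrays of a group were separate cultures. P-values therefore measure only the spread between these arrays, which may be technical.

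As background, cells hold hydrogen peroxide and oxidised protein thiols in check with a pair of thiol systems. In the thioredoxin system a small dithiol protein reduces protein disulfides and peroxiredoxins and is itself recharged by thioredoxin reductase with electrons from NADPH. In the glutathione system the tripeptide glutathione, whose first and rate-limiting step is made by glutamate-cysteine ligase, does similar work and is recharged by glutathione reductase. NRF2, the protein of the NFE2L2 gene, pairs with small MAF proteins on antioxidant response elements and raises transcription of many genes of both systems. KEAP1 normally marks NRF2 for degradation, so NRF2 is controlled mostly at the protein level, which arrays do not measure.

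After 24 h of HAase the 10 genes divided by direction. NFE2L2, GCLM, TXNRD1 and SRXN1 were higher than in PBS, and GSR, TXN2, GCLC, NQO1 and TXNRD2 were lower. In all, 9 of 10 changed by limma at an adjusted p under 0.05 (Benjamini-Hochberg over 13842 genes), 4 higher and 5 lower, against 40.3% of all genes tested, 17.5% higher and 22.8% lower. The groups did not overlap for 10 of 10, where 52.0% of all genes tested had none. On the probe set used for each gene the largest of these changes was 1.65-fold, for GSR, while another probe set of NQO1 fell 1.69-fold. Without 24 h replicate 3 the value of TXN2 (log2 fold change -0.73) exceeded that of GSR in size (-0.72). After 6 h, 6 of 10 differed from PBS, 4 higher and 2 lower, where 42.4% of all genes did, 15.0% higher and 27.4% lower, and 7 of 10 did not overlap (54.2% of all genes). From 6 h to 24 h of HAase 3 of 10 changed, all lower, where 33.0% of all genes changed, 13.3% lower and 19.7% higher. The arrays of the times did not overlap for 6 of 10 (45.9% of all genes). All 10 genes passed the filter on dim signals. They were chosen with earlier results of these data known, and the shares over all genes include dimmer genes. When only genes above the 50th percentile of mean signal were tested, 5340 genes changed at 24 h, against 5577 here, and 10 of the 10 members. The median log2 fold change of the 10 genes was -0.06 at 24 h and 0.04 at 6 h against PBS, and -0.14 between the times. Over all genes tested the medians were -0.03, -0.08 and 0.05. Values are linear signal intensities, tests were made on log2(signal + 16), and errors are SD for signals and SE for log2 fold changes (n = 3 arrays each). Fewer cells of a type and less RNA per cell cannot be told apart in such bulk samples. PBS was harvested at 24 h, so at 6 h the treatment and the time of harvest cannot be told apart.

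**Figure D1:**
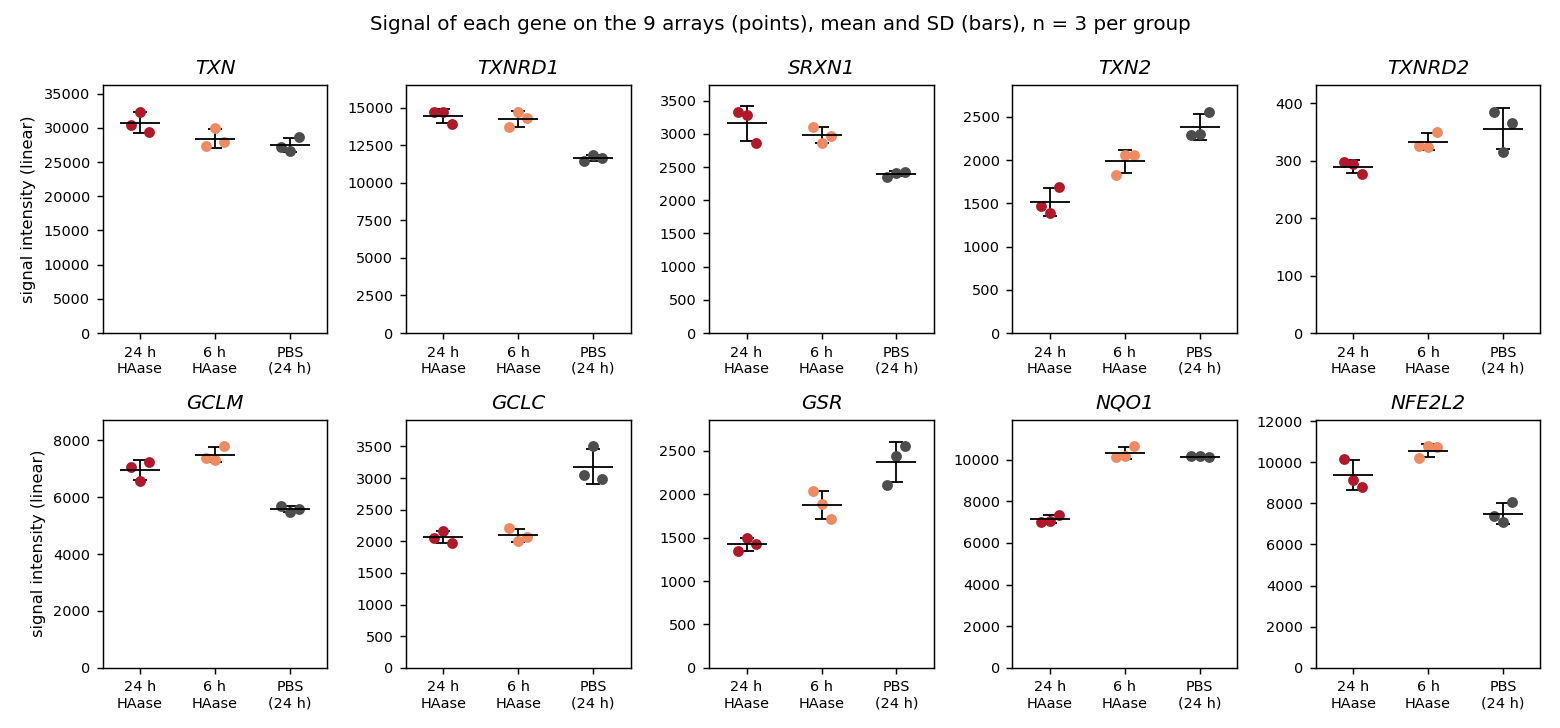
Signal intensity (linear, from 0) of the probe set used for each gene on the 9 arrays, with the mean and SD of each group (n = 3). The groups of 24 h HAase and PBS do not overlap for any of the 10 genes, and NQO1 at 6 h lies at its PBS level.

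Markers of cell identity moved on the same arrays. A control level was taken on each array as the signal of the brightest probe set for a Bacillus subtilis transcript, of 27, and was between 34.2 and 65.0. Of 9 adipocyte markers 7 lay above it on all 9 arrays, LEP on none, and their summed signal was 44029.6 to 49562 at 24 h, 70176 to 73314 at 6 h and 80577 to 85555 in PBS. Of 8 leukocyte markers 4 lay above it on all arrays (ITGAM, CD163, LCP1 and CSF1R) and PTPRC, which defines leukocytes, on none, with sums of 1018 to 1038, 511 to 531 and 341 to 418 in the same order. EPCAM and CDH1 of the epithelial list and CDH5 of the endothelial list lay above it on none. Of 9 epithelial markers 1 lay above it on all arrays (sums 244 to 351.4, 379.7 to 435 and 477 to 734), and of 7 endothelial markers 1 did (462 to 496, 421 to 455 and 303 to 367). Of 6 fibroblast and mesenchymal markers 5 did (54384 to 63568, 55979.5 to 59357 and 48536 to 49799). Single markers of this list moved apart: by limma 1 of the 6 was higher than PBS at 24 h (FN1, 1.64-fold) and 2 were lower, COL1A2 4.45-fold and COL1A1 3.59-fold. In the adipocyte list 8 of 8 tested were lower at 24 h (PLIN1 13.4-fold, CEBPA 6.98-fold) and 5 of 8 at 6 h. In the leukocyte list 3 of 4 tested were higher at 24 h (CD163 5.44-fold) and 0 lower. In the epithelial list 1 of 4 tested, KRT14, was lower at 24 h, by at least 5.34-fold. As a measure of intact RNA, the 3′ probe set minus the 5′ probe set on the log2 scale was -0.11 ± 0.09 at 24 h, -0.02 ± 0.05 at 6 h and 0.01 ± 0.03 in PBS for GAPDH, and 1.52 ± 0.12, 1.37 ± 0.20 and 1.64 ± 0.08 for ACTB (SD, n = 3 each). The part of these shifts in the results was not tested.

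NFE2L2 encodes NRF2 itself. Its signals were 10167, 9152 and 8781 at 24 h, 10200.4, 10775 and 10729 at 6 h and 7373, 7078 and 8044 in PBS. Every HAase array lay above every PBS array, and the 6 h arrays lay highest. At 24 h NFE2L2 was 1.25-fold higher than PBS (log2 fold change 0.32 ± 0.07, limma adjusted p = 0.0101), and at 6 h 1.41-fold higher (0.50 ± 0.07, adjusted p = 0.00119). The later level was below the earlier by 0.18 ± 0.07 on the log2 scale, which did not pass the test (adjusted p = 0.112), although the arrays of the times did not overlap. Its 2 other probe sets were dim and gave wide errors: at 24 h they read -0.48 ± 0.49 and -0.39 ± 0.39, neither past the test. At 6 h they read 0.54 ± 0.49 and 0.01 ± 0.39, again not past the test. The first of them lay above the level of the bacterial controls on every array.

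Glutamate-cysteine ligase is made of a catalytic subunit, GCLC, and a modifier subunit, GCLM, which lowers the concentration of glutamate that the enzyme needs. Signals of GCLM were 7060.1, 6559 and 7233 at 24 h, 7387, 7315 and 7794 at 6 h and 5699.7, 5467 and 5574 in PBS. All 6 HAase arrays lay above all PBS arrays. GCLM was 1.24-fold higher than PBS at 24 h (log2 fold change 0.32 ± 0.06, limma adjusted p = 0.00276) and 1.34-fold higher at 6 h (0.42 ± 0.06, adjusted p = 6.19e-04). Signals of GCLC, the catalytic subunit, were 2052, 2160.5 and 1973 at 24 h, 2210.2, 2005 and 2075 at 6 h and 3052, 3502 and 2991 in PBS. Here all 6 HAase arrays lay below all PBS arrays. GCLC was 1.54-fold lower at 24 h (log2 fold change -0.62 ± 0.08, limma adjusted p = 3.98e-04) and 1.51-fold lower at 6 h (-0.60 ± 0.08, adjusted p = 5.38e-04). Between 6 h and 24 h neither subunit passed the test (limma, GCLM adjusted p = 0.181, GCLC 0.851). The 95% intervals of the log2 difference were -0.24 to 0.02 for GCLM and -0.20 to 0.15 for GCLC. The GCLM arrays of 24 h all lay below those of 6 h, while the GCLC arrays of the times overlapped.

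The promoters of the subunits, whose transcripts moved in opposite directions, are shown as sequence. Their part in those changes was not tested. The antioxidant response element core TGACNNNGC, read on both strands, was searched from 250 bases before to 50 after each start site in RefSeq's table (GRCh38.p14), where 8 of the 10 members had a window. TXN2 and GSR were not matched. The core lay in 3 of the 12 member windows, those of GCLM and TXNRD1, and in 13.3% of all 35116 windows. SRXN1 and NFE2L2, which were also higher after HAase, had no match, nor had NQO1, TXN, TXNRD2 or GCLC. The stretches below run 5′ to 3′ on the gene's strand, and capitals mark the core, which in GCLM and in the second TXNRD1 window is read on the opposite strand. The GCLM stretch (chr1:93909431-93909490, - strand) and the GCLC stretch (chr6:53545102-53545161, - strand) cover the 60 bases before the start, and the GCLM core lies 34 to 26 bases before it. The TXNRD1 stretches (chr12:104215655-104215713, + strand, and chr12:104286905-104286963, + strand) belong to different annotated starts, with the core 99 to 91 and 102 to 94 bases before them. The first TXNRD1 window held another match at its start site, not shown.
GCLM: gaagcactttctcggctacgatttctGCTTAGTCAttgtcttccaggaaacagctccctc
GCLC: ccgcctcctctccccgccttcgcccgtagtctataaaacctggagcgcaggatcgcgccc
TXNRD1 first start: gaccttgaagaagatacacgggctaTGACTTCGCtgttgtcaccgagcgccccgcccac
TXNRD1 second start: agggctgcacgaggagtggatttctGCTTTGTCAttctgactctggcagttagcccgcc
The GCLC stretch holds no match, nor does the rest of its window. A match describes letters in these windows only: occupancy by NRF2 was not measured here, and elements outside the windows were not searched.

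GSR encodes glutathione reductase, which returns oxidised glutathione to its reduced form. Its signals were 1349.8, 1496 and 1426 at 24 h, 2036, 1885 and 1709.5 at 6 h and 2109.5, 2438 and 2554 in PBS. The groups were ordered without overlap, lowest at 24 h and highest in PBS. GSR was 1.65-fold lower than PBS at 24 h (log2 fold change -0.72 ± 0.09, limma adjusted p = 5.15e-04), at percentile 7.88 of the log2 fold changes of all genes tested. At 6 h it was 1.26-fold lower (-0.33 ± 0.09, adjusted p = 0.0233), and it fell further between the times (-0.39 ± 0.09, adjusted p = 0.0146). The call at 6 h did not survive leaving out PBS replicate 2, PBS replicate 3, 6 h replicate 2 or 6 h replicate 3 (limma adjusted p between 0.0555 and 0.0749) and was 0.0502 with replicate number as a block. Its other probe set gave -0.71 ± 0.07 at 24 h and -0.21 ± 0.07 at 6 h, both past the test over probe sets (adjusted p = 1.35e-04 and 0.0497).

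**Figure D2:**
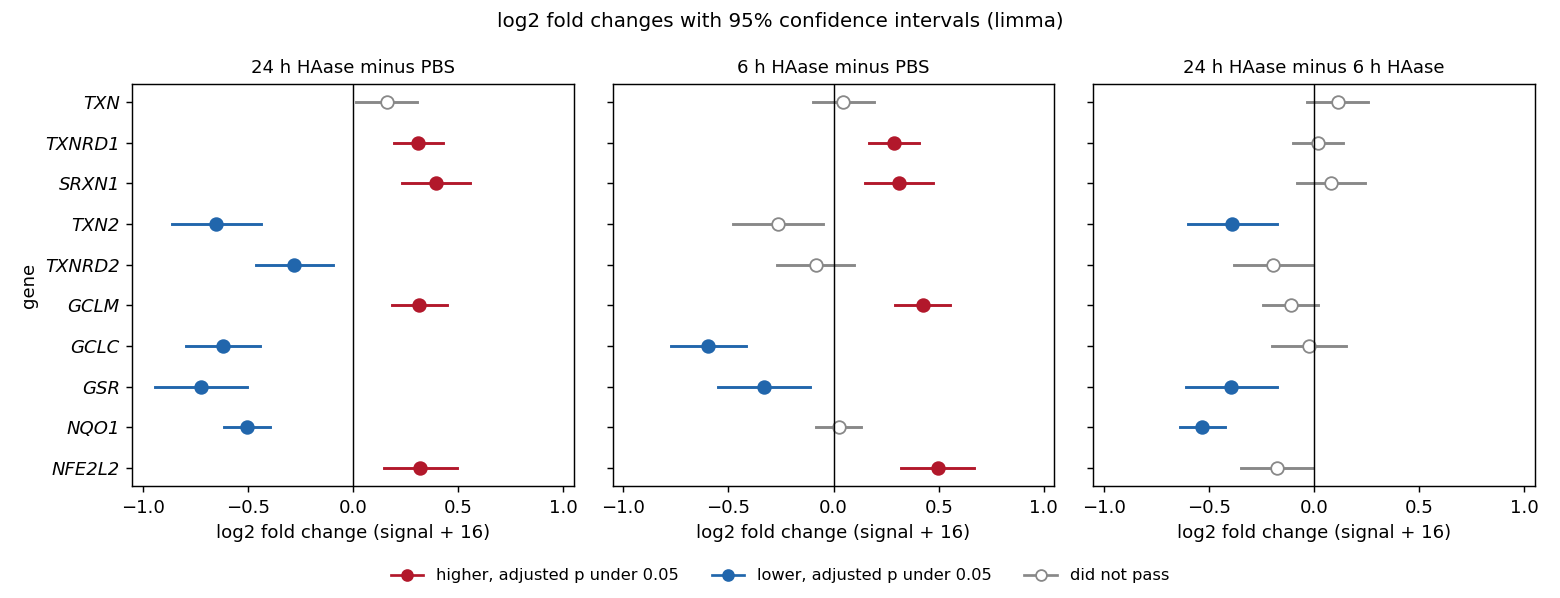
log2 fold changes of the 10 genes with 95% confidence intervals, for 24 h HAase minus PBS, 6 h HAase minus PBS and 24 h minus 6 h HAase. Filled points passed the test (red higher, blue lower): 9, 6 and 3 of the 10 genes.

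In the cytosolic thioredoxin system the reductase rose and thioredoxin itself did not pass the test. TXNRD1, the cytosolic thioredoxin reductase, is a selenoprotein. It had signals of 14748, 14719 and 13929 at 24 h, 13726, 14751 and 14288 at 6 h and 11482, 11872 and 11631 in PBS. The groups of both HAase times lay above PBS without overlap and overlapped with each other. TXNRD1 was 1.24-fold higher than PBS at 24 h (log2 fold change 0.31 ± 0.05, limma adjusted p = 0.00182) and 1.22-fold higher at 6 h (0.29 ± 0.05, adjusted p = 0.00267). TXN, cytosolic thioredoxin, had signals of 30410.4, 32382 and 29356 at 24 h, 27314, 29973 and 27896 at 6 h and 27198, 26570.5 and 28638 in PBS. The 24 h arrays lay just above the PBS arrays, and the 6 h arrays overlapped with both. Its log2 fold change was 0.16 ± 0.06 at 24 h (adjusted p = 0.0766, 95% interval 0.02 to 0.31) and 0.05 ± 0.06 at 6 h (adjusted p = 0.586), and its other probe set gave -0.05 ± 0.07 and -0.06 ± 0.07. The 24 h value of TXN passed when only genes above the 50th percentile were tested (adjusted p = 0.0473) and with a trended, robust variance (0.0160).

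SRXN1 encodes sulfiredoxin, which repairs over-oxidised peroxiredoxins and is a known NRF2 target. It had signals of 3336, 3284 and 2859 at 24 h, 3101, 2865 and 2972 at 6 h and 2357, 2407 and 2429 in PBS, from the only probe set of the gene. All HAase arrays lay above all PBS arrays. SRXN1 was 1.31-fold higher at 24 h (log2 fold change 0.39 ± 0.07, limma adjusted p = 0.00269) and 1.24-fold higher at 6 h (0.31 ± 0.07, adjusted p = 0.00833), and the times overlapped (adjusted p = 0.422). TXNIP, which binds and inhibits thioredoxin, gave log2 fold changes of 0.19 ± 0.06 at 24 h and -0.36 ± 0.06 at 6 h against PBS (limma adjusted p = 0.0281 and 0.00169), on the brightest of its probe sets. The other TXNIP probe sets gave -0.05 ± 0.08 and 0.09 ± 0.18 at 24 h, neither past the test over probe sets, and -0.45 ± 0.08 and -0.35 ± 0.18 at 6 h, of which the first passed.

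The mitochondrial members, thioredoxin TXN2 and its reductase TXNRD2, were both lower after 24 h, though the call of TXNRD2 was not stable. TXN2, the thioredoxin of mitochondria, had signals of 1470.4, 1386 and 1692 at 24 h, 1830.3, 2064 and 2057 at 6 h and 2287, 2304 and 2562 in PBS. The groups did not overlap, and the order was 24 h below 6 h below PBS. TXN2 was 1.57-fold lower than PBS at 24 h (log2 fold change -0.65 ± 0.09, limma adjusted p = 8.13e-04) and fell between 6 h and 24 h (-0.39 ± 0.09, adjusted p = 0.0140). At 6 h its value against PBS, -0.26 ± 0.09, lay at the threshold (adjusted p = 0.0507), and its other probe set passed there (-0.24 ± 0.07, adjusted p = 0.0281 over probe sets). TXNRD2, the mitochondrial reductase, had signals of 297, 295 and 277 at 24 h, 326, 325 and 350.1 at 6 h and 386, 316 and 366 in PBS. The 24 h arrays lay below all others, and PBS replicate 2 lay below all 6 h arrays. TXNRD2 was 1.21-fold lower at 24 h (log2 fold change -0.28 ± 0.08, limma adjusted p = 0.0238) and gave -0.09 ± 0.08 at 6 h (adjusted p = 0.432). TXNRD2 no longer passed at 24 h when PBS replicate 1, PBS replicate 3 or 24 h replicate 3 was left out (adjusted p between 0.0718 and 0.0760), under quantile normalization (0.0627) and in a fit of these groups alone (0.0518).

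NQO1, a quinone reductase that uses NADPH or NADH, is often read as an indicator of NRF2 activity. Its signals were 7007, 7058 and 7364 at 24 h, 10132, 10199.7 and 10645 at 6 h and 10161, 10172 and 10111 in PBS. The 6 h and PBS arrays overlapped, and the 24 h arrays lay well below both. NQO1 was 1.42-fold lower than PBS at 24 h (log2 fold change -0.51 ± 0.05, limma adjusted p = 7.33e-05) and 1.44-fold lower than at 6 h (-0.53 ± 0.05, adjusted p = 1.18e-04). At 6 h its difference from PBS was 0.02 ± 0.05 (adjusted p = 0.710, 95% interval -0.08 to 0.13). The 2 other NQO1 probe sets fell by more at 24 h, with log2 fold changes of -0.76 ± 0.05 and -0.69 ± 0.05. They gave -0.01 ± 0.05 and -0.05 ± 0.05 at 6 h, neither past the test.

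Partner genes were then compared within each array, a step chosen after their values were seen. The log2 difference GCLM minus GCLC was higher than in PBS by 0.93 at 24 h and by 1.02 at 6 h, a 1.91-fold and 2.03-fold shift in their ratio of signals. It did not separate the times (-0.09, exact permutation p = 0.6). For TXN minus TXN2 the shift against PBS was 0.81 at 24 h and 0.31 at 6 h. For TXNRD1 minus TXNRD2 it was 0.59 at 24 h and 0.37 at 6 h. In each of these 6 comparisons with PBS the arrays did not overlap, and the two-sided exact permutation p was 0.1, the smallest that 3 against 3 arrays allow. For GCLM minus GCLC at both times and for the thioredoxin pairs at 24 h this outcome was fixed in advance. There each partner had already separated from PBS, in opposite directions, so the lack of overlap adds no support. How often other gene pairs separate in this way is not given. Both thioredoxin differences were also higher at 24 h than at 6 h, by 0.50 and 0.22, without overlap. These shifts show unequal change of the partners on the arrays, not amounts of protein, and over the 9 tests of this family none could pass a threshold of 0.05.

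**Figure D3:**
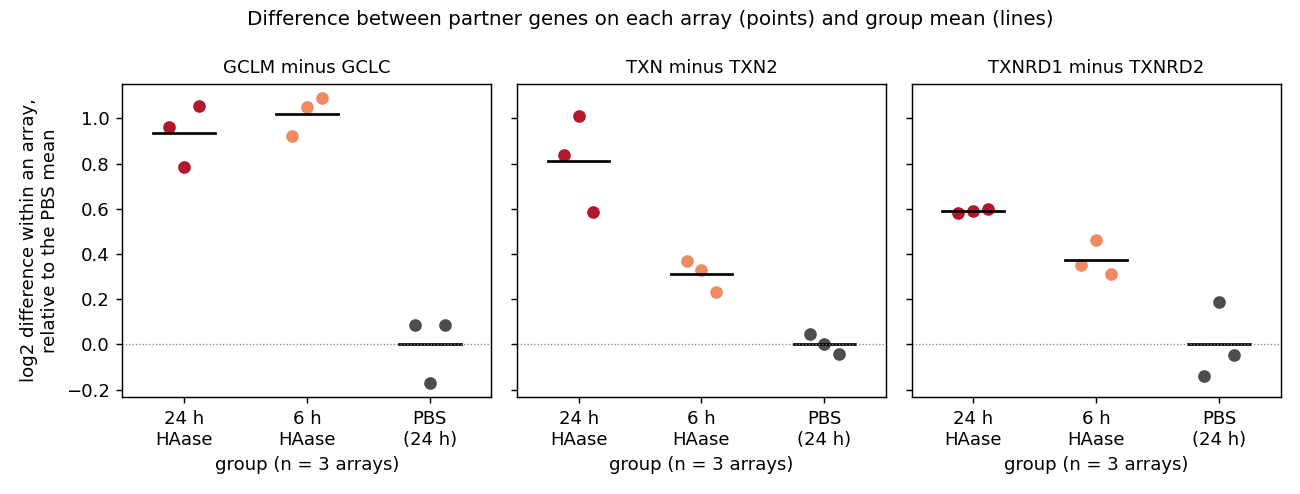
Difference of log2(signal + 16) between partner genes on each array, relative to the PBS mean (points, n = 3 per group; lines are group means). The HAase arrays lie above the PBS arrays in all 3 panels; the thioredoxin pairs lie higher at 24 h than at 6 h.

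The probe sets of each gene were then read apart. Of the 23 probe sets, 22 passed the filter on dim signals (a mean of about 32.2), the other being the second of TXNRD1, and 19 lay above the control level on every array. Fitted as probe sets, 14 of 22 changed at 24 h, 4 higher and 10 lower, against 33.3% of the 26599 tested, 14.5% higher and 18.8% lower. At 6 h 10 of 22 changed, 5 in each direction, against 33.4% (13.0% higher and 20.4% lower). Between the times 7 of 22 changed, all lower, against 24.9% (11.3% lower). The second GCLC probe set gave log2 fold changes of -0.54 ± 0.06 at 24 h and -0.50 ± 0.06 at 6 h, while the third, at the control level, gave 0.30 ± 0.47 at 24 h. The GCLM probe sets gave 0.32 ± 0.06, 0.19 ± 0.14 and 0.64 ± 0.23 at 24 h, of which the first passed, and 0.42 ± 0.06, 0.30 ± 0.14 and 0.87 ± 0.23 at 6 h, of which the first and last passed. Averaging all probe sets of a gene, dim ones included, left 5 of 10 genes changed at 24 h, where 32.9% of all genes tested changed under that setting, and 4 of 10 at 6 h, where 33.4% did. The calls of TXNRD1, GCLC and NFE2L2 were then lost at both times and that of TXNRD2 at 24 h, while TXN2 passed at 6 h. A probe set that matches both NFE2L2 and another gene was left out.

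**Figure D4:**
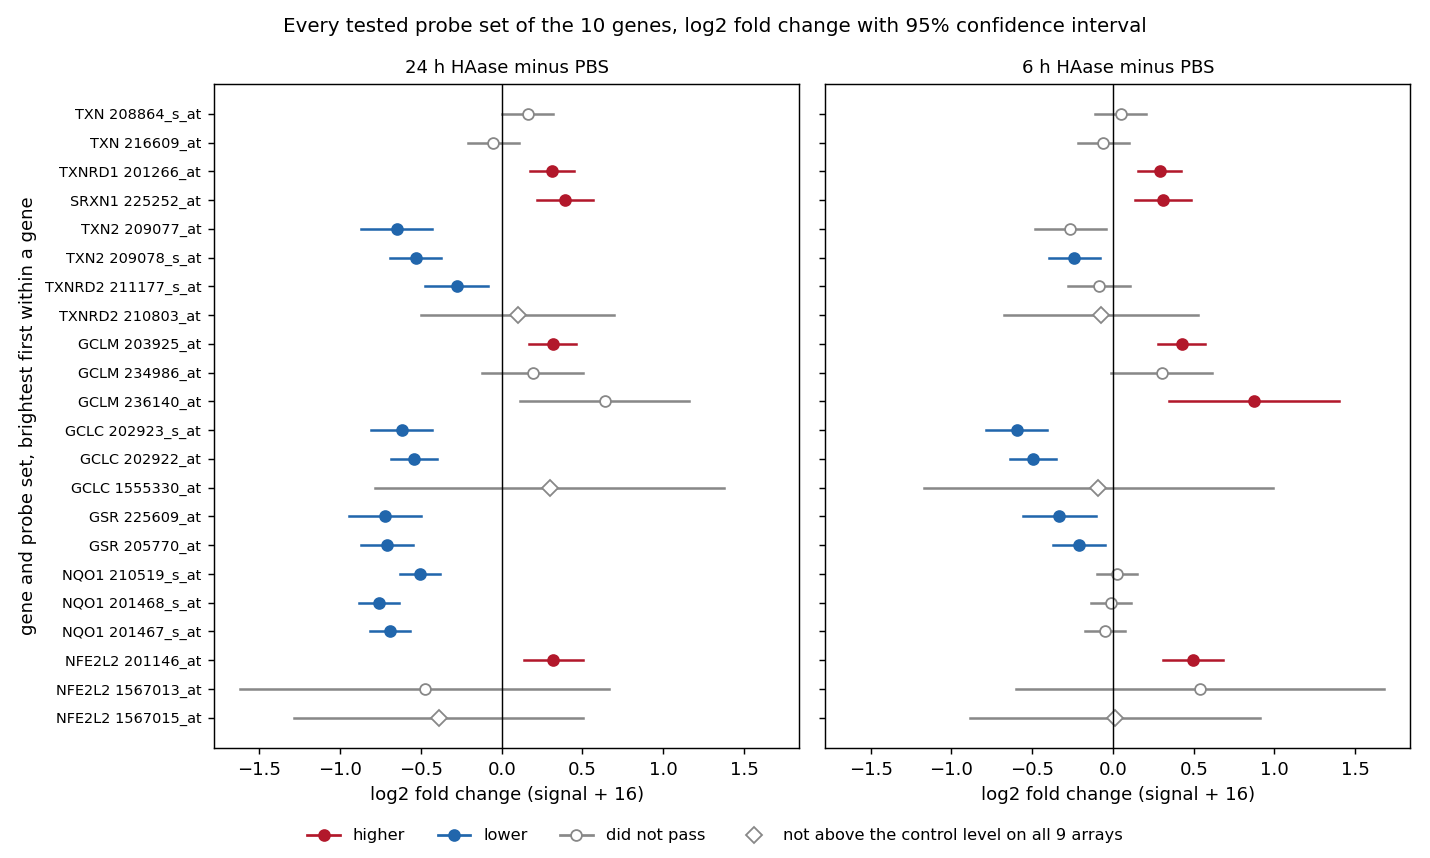
log2 fold change with 95% confidence interval of each of the 22 probe sets tested, brightest first within a gene, for 24 h HAase minus PBS and 6 h HAase minus PBS. Diamonds mark 3 probe sets that were not above the control level on all 9 arrays.

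Other genes of these pathways were taken from 5 lists, described by counts and medians beside those of all genes given above. Of all genes tested 17.5% rose and 22.8% fell at 24 h, and 15.0% rose and 27.4% fell at 6 h. Among regulators and partners of NRF2, 10 of 20 rose and 1 fell at 24 h (median log2 fold change 0.20), and 5 of 20 rose and 5 fell at 6 h (median 0.11). MAFF, a small MAF protein that pairs with NRF2, was higher by a log2 fold change of 3.68 ± 0.05 at 24 h and 4.05 ± 0.05 at 6 h. Its relative MAFG rose by 1.00 ± 0.07 and 0.78 ± 0.07. BACH1, which competes with NRF2 for the same elements, was also higher, with signals of 3103 ± 62.7 at 24 h against 1608 ± 71.4 in PBS (log2 fold change 0.94 ± 0.06 at 24 h and 1.18 ± 0.06 at 6 h). The related factor gene NFE2L3 rose at 24 h (1.51 ± 0.08), and BACH2 rose at 6 h (1.32 ± 0.14) from a level above the controls on 1 of 3 PBS arrays. Limma adjusted p-values of these calls were at most 1.76e-04.

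Among other NRF2 target genes, at 24 h 6 of 34 rose and 15 fell (median -0.15), and at 6 h 4 of 34 rose and 12 fell (median -0.09). Over all genes 17.5% rose and 22.8% fell at 24 h, and 15.0% rose and 27.4% fell at 6 h. The count that rose at 24 h is thus near the background. EPHX1, an epoxide hydrolase, had a signal of 153 ± 9.90 at 24 h against 606 ± 30.8 in PBS, a log2 fold change of -1.88 ± 0.12. TRIM16 gave -1.40 ± 0.05 and AKR1C3, an aldo-keto reductase, -1.28 ± 0.05. At 6 h AKR1C3 gave -0.08 ± 0.05 and did not pass the test (adjusted p = 0.257), so that, like NQO1, it was lower than PBS at 24 h and fell between the times (-1.20 ± 0.05). SLC7A11, the cystine importer that feeds glutathione synthesis, went the other way, with 6132 ± 429 at 24 h and 3165 ± 285 at 6 h against 962 ± 60.6 in PBS. The drug exporter gene ABCC3 (1.04 ± 0.10) and UGDH (0.77 ± 0.06), which makes UDP-glucuronate, rose at 6 h. Limma adjusted p-values of these calls were at most 9.96e-05.

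In the list of glutathione synthesis and use, 5 of 29 rose and 15 fell at 24 h (median -0.27), and 4 of 29 rose and 9 fell at 6 h (median -0.16). Over all genes 17.5% rose and 22.8% fell at 24 h, and 15.0% rose and 27.4% fell at 6 h. The counts that rose at both times and that fell at 6 h are near these shares. Values of single genes here are log2 fold changes against PBS. The glutathione transferase genes GSTA4 (-1.32 ± 0.05) and GSTK1 (-1.30 ± 0.06) were among the largest falls at 24 h, while CHAC1, which breaks glutathione down, was at least 2.62-fold higher, since no PBS array lay above the control level. GSTO1 rose at 6 h (0.54 ± 0.05), and GPX8, a peroxidase of the endoplasmic reticulum (-0.69 ± 0.05), and GSTM1 (-0.49 ± 0.09), whose probe set may share probes with related genes, fell. Of the thioredoxin and peroxiredoxin system 6 of 18 rose and 5 fell at 24 h (median -0.07), and 5 of 18 rose and 6 fell at 6 h (median -0.06). The counts that fell are near the shares of all genes at both times. SESN2, a stress-induced sestrin, rose 2.83-fold at 24 h and 1.43-fold at 6 h, and its relative SESN1 fell (log2 fold change -1.04 ± 0.09 and -0.67 ± 0.09). Glutaredoxin (GLRX) rose at 6 h (0.97 ± 0.05), while the methionine sulfoxide reductases MSRB2 (-0.84 ± 0.05) and MSRB1 (-0.60 ± 0.15) fell at 24 h.

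In the list of superoxide and peroxide removal, 0 of 13 rose and 6 fell at 24 h (median -0.14), and 1 of 13 rose and 3 fell at 6 h (median -0.06). Over all genes 17.5% rose and 22.8% fell at 24 h, and 15.0% rose and 27.4% fell at 6 h. The count that fell at 6 h is near the background. Catalase (CAT) had a signal of 5071 ± 291 at 24 h and 9888 ± 241 at 6 h against 13264 ± 1010.1 in PBS (log2 fold changes -1.38 ± 0.07 and -0.42 ± 0.07). GPX3, a secreted glutathione peroxidase, fell by 1.23 ± 0.06 on the log2 scale at 24 h. SOD2, the superoxide dismutase of mitochondria, rose at 6 h (1.00 ± 0.05) and was 0.07 ± 0.05 from PBS at 24 h, not past the test (limma adjusted p = 0.286). The cytosolic peroxiredoxin gene PRDX1, a partner of TXN, gave 0.01 ± 0.05 at 24 h (adjusted p = 0.929) and the mitochondrial PRDX3, a partner of TXN2, -0.11 ± 0.06 (0.233); both were chosen after their values were seen. The lists share members, so their counts are not independent, and limma adjusted p-values of the calls named in these 3 lists were at most 0.0131.

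**Figure D5:**
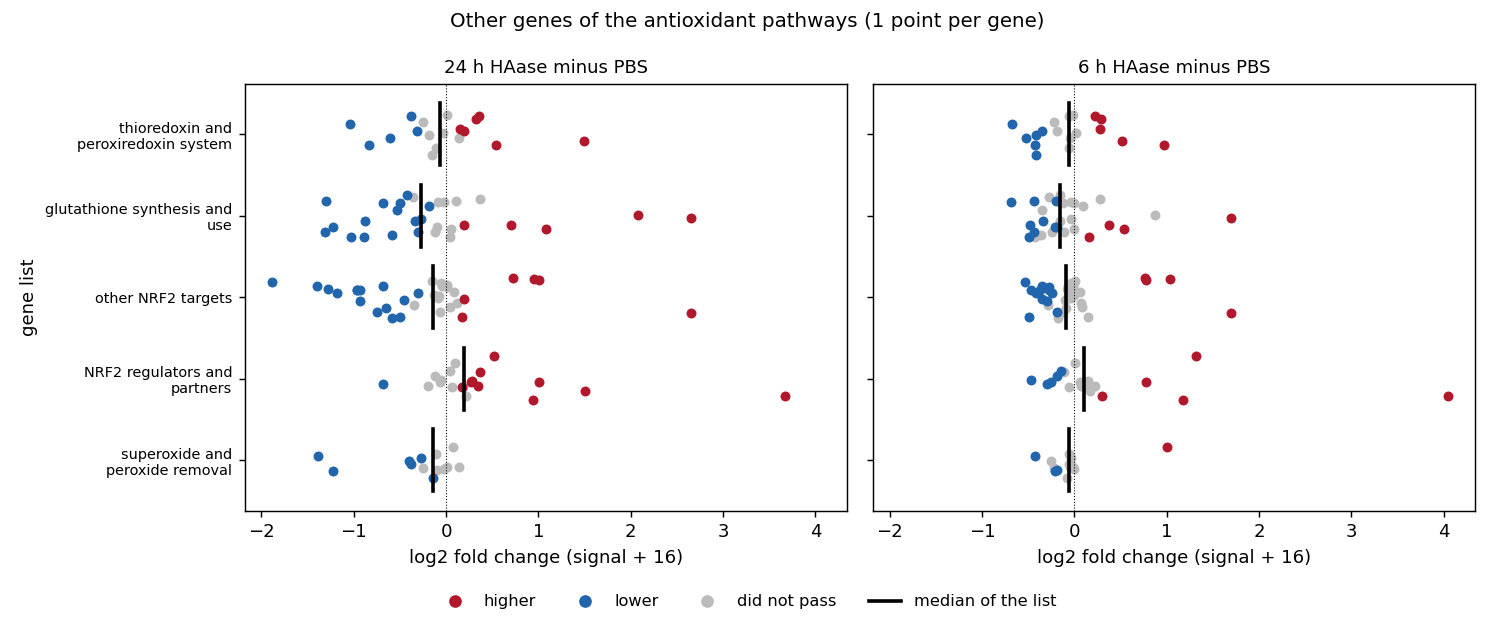
log2 fold change of each tested gene of the 5 pathway lists (points; red higher, blue lower, grey not past the test) and the median of each list (black line), for 24 h HAase minus PBS and 6 h HAase minus PBS. At 24 h the median lies right of 0 for the NRF2 regulators and left of 0 for the other 4 lists, and MAFF is the point farthest right in both panels.

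NQO1 had the largest F statistic of the 10 genes over the 3 groups. The 5 genes whose log2 signals correlated most closely with it over the 9 arrays were CCDC80, GAS1, MCAM, GNAT3 and ENAH, with Pearson's r between 0.9952 and 0.9985. The 9 arrays fall into 3 groups, and all genes share those arrays, so the correlations are given as a description. Like NQO1, CCDC80 was lower at 24 h and near its PBS level at 6 h, with 2285 ± 119 at 24 h, 4339 ± 184 at 6 h and 4283 ± 107 in PBS. GNAT3 had the largest fall of the 5 at 24 h (-2.68 ± 0.09), and the other 4 were lower by 1.70-fold (ENAH) or more. None of the 5 passed the test at 6 h (limma adjusted p between 0.160 and 0.864). The genes were picked on these arrays for their likeness to NQO1, so these values describe that likeness and do not test it.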

How the data were processed

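Per the series design text, the authors made the deposited values, linear signal intensity per probe set, from Affymetrix CHP files; no source used here names the algorithm that summarised the probes. The deposited intensity values had been scaled per array: means after trimming 2% at each end were 500.1 on all 9 arrays. Each gene was represented by its probe set with 1 symbol in the platform annotation and the highest mean of log2(signal + 16). Genes below the 30th percentile of that mean were left out, and 13842 were tested in R 4.3.3 by fitting 1 mean per group to all 9 arrays (limma 3.58.1, functions lmFit and eBayes), with Benjamini-Hochberg adjustment over all of them and a threshold of 0.05. A second fit took all 26599 probe sets with 1 symbol past the same signal. The fit was also run on simulated arrays with independent noise and far fewer changed genes than were called here. That run does not test the calls reported. The number of arrays limits the precision. Exact permutation tests were two-sided. Named list genes were up to 4 per list and comparison with the largest changes past the test. Members and lists were chosen with earlier results of these data known. Alternatives changed the pseudocount, scaling, filter, probe set rule, variance model, samples, replicate block and single arrays.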

Additional observations from a re-analysis of the deposited data

Results flagged for a closer look

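Levels after 24 h and 6 h of HAase differed for 3 of the 10 genes, a share no larger than the 33.0% of all genes tested that differed in this comparison. PBS was measured at 24 h, so the duration of treatment and the time of harvest cannot be told apart here. For NQO1 the difference was -0.53 ± 0.05 (SE), limma adjusted p = 1.18e-04, lower on 3 of 3 arrays than on any 6 h array. For GSR it was -0.39 ± 0.09 (SE), limma adjusted p = 0.0146, and for TXN2 -0.39 ± 0.09 (SE), limma adjusted p = 0.0140, again without overlap of the arrays. The 3 genes kept this call under each of the alternatives run for it. No group had enough arrays to look for single outlying arrays.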

How the results depend on the processing

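Of 336 member values under alternatives other than leaving out an array, 304 kept their direction and side of the threshold, and of 180 on leaving out an array 173 did. The count of members changed at 24 h moved to 5 with the mean of all probe sets, under which 4550 genes changed in all against 5577. The NFE2L2 value at 24 h reversed with that mean (-0.18, limma adjusted p = 0.663) and in its dim probe sets (-0.48 and -0.39). So did the values of dim probe sets of TXNRD2 (0.10) and GCLC (0.30). That mean weighs all probe sets of a gene alike, and the brightest of NFE2L2 read 0.32. Why the dim probe sets differed was not tested. Leaving out single arrays gave between 8 and 9 members changed at 24 h, 5 and 6 at 6 h and 3 between the times, and between 4818 and 5069, 4903 and 5161, and 3718 and 3976 genes in all. The TXN2 value at 6 h passed under 8 alternatives or its other probe set. Same-numbered arrays of different groups showed no shared deviation (correlations across genes from -0.05 to 0.04, and from -0.06 to 0.06 for other-numbered arrays). This does not settle whether they were handled as pairs. With the replicate block 9, 6 and 3 members changed, and 5187, 5447 and 4117 genes; GSR at 6 h was lost (adjusted p = 0.0502) and TXN2 at 6 h gained (0.0334). With quantile normalization 2 member values at 6 h that did not pass changed sign. Dim probe sets near the control level have wide errors, and their changes could not be resolved.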

Other observations

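Glutathione transferases join glutathione to electrophiles, and those of the lists were counted as a family after their values were seen. At 24 h 10 of 14 were lower than PBS by limma and 1 was higher (median log2 fold change -0.46), where 22.8% of all genes tested were lower and 17.5% higher. At 6 h 4 were lower and 1 was higher (median -0.22), where 27.4% of all genes were lower and 15.0% higher, so the count of those lower is near the background. The gene higher at both times was GSTO1, with 21724 ± 1057 at 24 h and 14871 ± 146 at 6 h against 10221 ± 117 in PBS. GSTM4 (-1.03 ± 0.16), GSTM1 (-0.89 ± 0.09) and GSTM2 (-0.88 ± 0.10) were among those lower at 24 h, each on a probe set whose suffix marks probes shared with other transcripts, so these near-identical genes are uncertain.

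Some genes were lower than PBS at 6 h and higher at 24 h than at 6 h, and were named after their values were seen. Their p-values therefore do not test this pattern. Among all genes tested 27.4% were lower than PBS at 6 h and 19.7% were higher at 24 h than at 6 h. Both comparisons use the same 6 h arrays, so these separate shares do not give how common the joint pattern is. KEAP1, which marks NRF2 for degradation, had a signal of 821 ± 49.3 at 6 h against 1142 ± 14.3 in PBS (log2 fold change -0.47 ± 0.07, limma adjusted p = 9.61e-04) and was higher at 24 h than at 6 h by 0.41 ± 0.07 (adjusted p = 0.00258). GSS, which completes glutathione synthesis after glutamate-cysteine ligase, gave -0.20 ± 0.07 at 6 h (adjusted p = 0.0448) and 0.11 ± 0.07 at 24 h (0.241), and its difference between the times was 0.31 ± 0.07 (adjusted p = 0.00956). HAGH, a glyoxalase, was lower at 6 h (-0.48 ± 0.06, adjusted p = 5.84e-04) and higher at 24 h (0.20 ± 0.06, 0.0364), and differed between the times by 0.68 ± 0.06 (adjusted p = 1.51e-04).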
